A study of Mus musculus with 4 samples.

Results

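The genes described here encode the soluble glutathione S-transferases of the alpha, kappa, omega, pi, theta and zeta classes (Gsta, Gstk, Gsto, Gstp, Gstt, Gstz), the UDP-glucuronosyltransferases of families 1 to 3 (Ugt1, Ugt2, Ugt3) and the sulfotransferases (Sult). They were chosen by gene symbol alone, and the mu-class Gstm genes were left out. Of the 20642 gene symbols in the deposited table, 44 belonged to the set, 14 Gst, 12 Ugt and 18 Sult genes. Each was represented by 1 transcript. Of the 44 genes, 26 counted as transcriptionally active and were tested, and 18 did not pass the activity cutoff.

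These enzymes carry out phase II of detoxification, in which a polar group is attached to a drug, toxin, steroid, bile acid or lipid breakdown product so that it can be excreted. Glutathione S-transferases attach glutathione, UDP-glucuronosyltransferases attach glucuronic acid from UDP-glucuronic acid, and sulfotransferases attach sulfate from the donor PAPS. The liver is the main site of all 3 reactions, and in hepatocytes the genes are known targets of nuclear receptors such as PXR and CAR, of the stress factor NRF2 and of hepatocyte factors such as HNF4A.

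Transcription was measured by PRO-seq (precision run-on sequencing), which maps engaged RNA polymerases by the RNA they extend in isolated nuclei. Livers of C57BL/6 mice were taken on day 14 after birth. All mice carried Alb-Cre, a Cre recombinase driven by the albumin promoter and therefore active in hepatocytes. WT mice were Hdac3 +/+, and KO mice carried conditional or conditional and null alleles (Hdac3 F/F or F/-), so that Hdac3, the catalytic subunit of the NCoR and SMRT corepressor complexes, was deleted in hepatocytes. Other liver cells kept the conditional allele, though those of F/- mice also carried the null allele. Each genotype had 2 libraries, and each of these pooled the nuclei of 9 mice, so that the spread between libraries is a spread between pools. With 2 libraries against 2, the smallest two-sided p of an exact permutation test of a single value is 0.33, and the tests below therefore rest on the spread shared over 12705 active genes.

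The libraries held 16628518 to 26190040 reads on genes. The deposited values were these reads multiplied by 1 factor per library, and they are called normalized reads here. The share of reads in promoter-proximal windows was 9.38% to 10.3% in WT and 13.6% to 17% in KO. Gene body signal of Hdac3 itself was 665 and 648 normalized reads in WT and 609 and 582 in KO (log2 fold change -0.14, limma adjusted p = 0.41), so the genotypes rest on the labels, since a deletion of part of a gene need not remove its nascent reads. Of 7 hepatocyte markers, 6 fell in gene bodies and the median of the list was -1.42, with a summed density of 23368 to 26738 normalized reads per kb in WT and 10047 to 10225 in KO. All 5 stellate cell markers and 4 of 5 endothelial markers rose, with summed densities of 76.8 to 91.6 in WT and 210.3 to 220 in KO for the former and of 694 to 709 and 1132 to 1226 for the latter. Of 4 Kupffer cell and leukocyte markers in the file, 0 were called by limma, edgeR or DESeq2 (725 to 769 in WT and 776 to 905 in KO). Among them, Ptprc was higher (log2 fold change 0.37, limma adjusted p = 0.014) and uncalled only for its fold change under 0.6. Of 3 tested cholangiocyte markers, Sox9 fell (-1.33), while Krt19 (0.83) and Spp1 (0.44) were higher without a gene body call. The summed density of the cholangiocyte list was 27.7 to 38 in WT and 26.7 to 28.4 in KO. Both erythroid markers in the file fell (13.3 to 16.7 and 3.96 to 6.07). No marker in the file was at 0 in a library. In whole liver, fewer cells of a type and less RNA per cell cannot be told apart, and the part of these shifts in the changes described below was not tested.

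Promoter sequence is shown for 4 genes, namely the pair that fell in both measured regions (Sult1d1 and Ugt2a3), a gene called up in both, though on few promoter-proximal reads (Sult5a1), and the low-level gene with the largest promoter-proximal contrast (Gsta2). The sequences are RefSeq entries of GRCm38.p6, the same assembly as mm10, and run from 250 bases before to 50 bases after the start site, 5′ to 3′ on the strand of the gene. Capitals mark matches on either strand to any of 5 motifs, and no match in these 4 promoters overlapped another. The motifs were the core promoter element TATAAA, the box CCAAT, the antioxidant response element core TGACNNNGC, the HNF4 core CAAAGTCCA and the GC-rich box GGGCGG.
Sult1d1, chr5:87568957-87569256, minus strand: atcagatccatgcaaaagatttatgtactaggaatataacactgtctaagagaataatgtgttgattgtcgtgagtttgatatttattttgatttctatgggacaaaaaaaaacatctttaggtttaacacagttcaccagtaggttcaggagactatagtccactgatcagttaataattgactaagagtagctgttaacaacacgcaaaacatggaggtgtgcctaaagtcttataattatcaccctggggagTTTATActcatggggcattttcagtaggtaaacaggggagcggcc
Ugt2a3, chr5:87337146-87337445, minus strand: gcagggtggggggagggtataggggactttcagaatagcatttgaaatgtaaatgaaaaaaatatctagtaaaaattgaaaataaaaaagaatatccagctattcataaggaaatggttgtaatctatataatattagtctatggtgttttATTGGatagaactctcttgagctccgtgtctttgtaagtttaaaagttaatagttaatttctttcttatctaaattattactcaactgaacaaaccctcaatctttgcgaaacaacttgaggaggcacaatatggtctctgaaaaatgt
Sult5a1, chr8:123158231-123158530, minus strand: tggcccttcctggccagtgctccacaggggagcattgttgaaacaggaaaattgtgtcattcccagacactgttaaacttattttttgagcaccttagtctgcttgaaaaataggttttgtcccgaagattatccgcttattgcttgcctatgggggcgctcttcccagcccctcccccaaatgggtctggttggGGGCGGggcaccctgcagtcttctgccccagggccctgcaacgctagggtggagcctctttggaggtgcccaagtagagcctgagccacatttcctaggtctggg
Gsta2, chr9:78347096-78347395, minus strand: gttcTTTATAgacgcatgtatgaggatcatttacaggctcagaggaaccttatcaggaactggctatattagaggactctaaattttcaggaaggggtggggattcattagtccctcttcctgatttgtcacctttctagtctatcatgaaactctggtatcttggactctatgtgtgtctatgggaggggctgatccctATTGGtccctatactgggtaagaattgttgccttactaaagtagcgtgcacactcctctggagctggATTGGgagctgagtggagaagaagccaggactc

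In the promoters shown, a CCAAT match on the opposite strand began at -99 from the start site of Ugt2a3 and at -50 and 18 from that of Gsta2, a GGGCGG match began at -55 in Sult5a1, and TATAAA matches on the opposite strand began at 6 in Sult1d1 and at -246 in Gsta2. The TATAAA element was found in 7 of 42 member promoters (13.6% of all promoters), the CCAAT box in 16 (37.4% of all promoters) and the GGGCGG box in 9 (35.7% of all promoters). The antioxidant response element core was found in 1, that of Gsta3 (12.4% of all), and the HNF4 core in 1, that of Sult1b1 (0.475% of all). The 42 promoters belonged to 37 of the 44 genes. A match is a description of these letters and not evidence of a bound factor.

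The first comparison asked how transcription through gene bodies differed between KO and WT livers. The gene body value counts reads from 1 kb past the start site to the end of the transcript and follows elongating polymerase. Among the 26 tested genes, 8 fell (Sult2a6, Ugt2a3, Sult1d1, Sult1c2, Gstk1, Gstz1, Gsto1 and Sult2a2), 3 rose (Sult5a1, Gstt2 and Gstp1) and 15 were not called. A call required a log2 fold change beyond 0.6 in either direction with an adjusted p below 0.05. Over all 12705 active genes 11.4% fell and 10.4% rose, against 30.8% and 11.5% of the tested conjugation genes. These shares hold only for genes past the activity cutoff. With edgeR over every gene with a gene body read, an alternative chosen after the values were seen, 8 of 42 fell and 8 rose. Over all 18354 genes so tested the shares were 9.88% and 11.0%. The median log2 fold change was -0.39 over the 26 genes and -0.09 over all active genes, and 17 of the 26 lay below 0. By class, 3 of 9 Gst, 1 of 8 Ugt and 4 of 9 Sult genes fell. Hepatocyte markers (6 of 7 lower) and stellate and endothelial markers (9 of 10 higher) moved in the same libraries, and their part in these falls and rises was not tested.

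**Figure D1:**
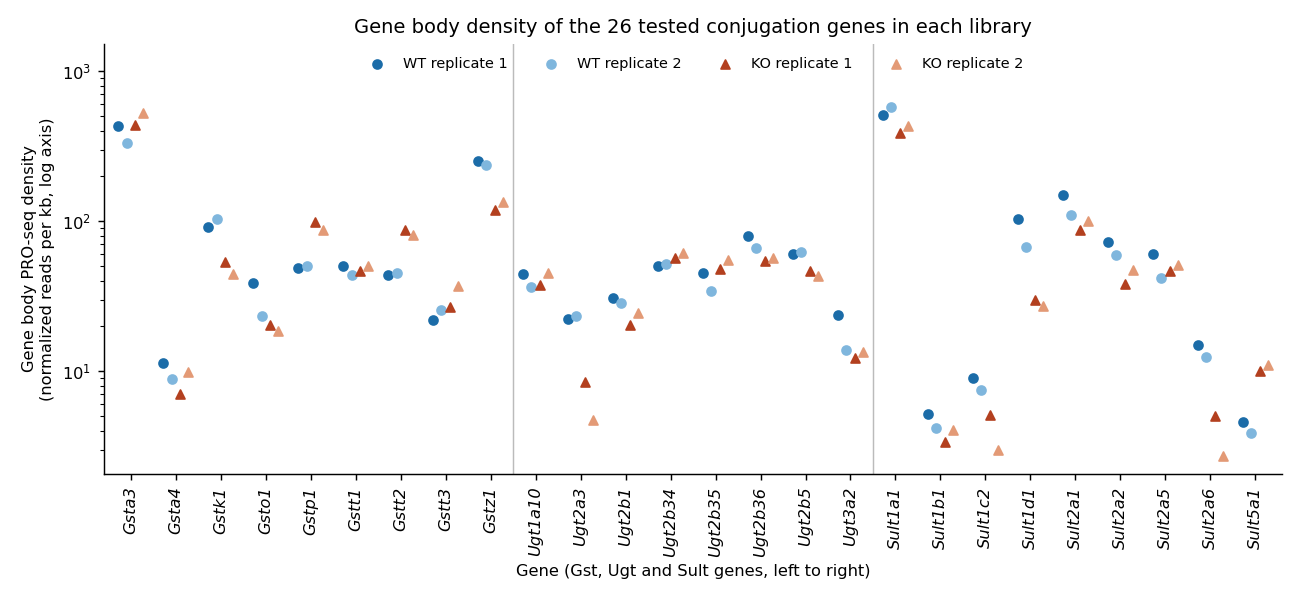
Gene body density of the 26 tested genes in each library, in normalized reads per kb on a log axis, with circles for the 2 WT libraries and triangles for the 2 KO libraries; Gst, Ugt and Sult genes are separated by vertical lines. The KO points of Ugt2a3, Sult1d1 and Sult2a6 lie far below the WT points, those of Gstp1, Gstt2 and Sult5a1 lie above them, and the 4 points of Ugt1a10, Gstt1 and Sult2a5 overlap.

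Among the glutathione S-transferases, the zeta-class gene Gstz1 (chr12:87147165-87164723, plus strand) encodes maleylacetoacetate isomerase of tyrosine breakdown. Its gene body signal was 4198 and 3902 normalized reads in WT and 1952 and 2209 in KO. The genotypes were well apart, and its mean went from 4050 ± 209 to 2080 ± 182 (SD, n = 2 each; log2 fold change -0.96, SE 0.11, limma adjusted p = 2.4e-07). Gstk1 (chr6:42245935-42250447, plus strand), the kappa-class enzyme of mitochondria and peroxisomes, had 321 and 365 normalized reads in WT and 187 and 155 in KO. It therefore fell to 0.498 of its WT mean (log2 fold change -1.01, SE 0.17, limma adjusted p = 4.2e-05). Gsto1 (chr19:47854970-47864790, plus strand), a thioltransferase that also reduces arsenic compounds, had 338 and 205 in WT and 178 and 162 in KO. WT replicate 1 stood apart from the other 3 libraries, and the change of -0.63 (SE 0.20, limma adjusted p = 0.016) became -0.27 (adjusted p = 0.37) without it, -0.69 (adjusted p = 0.13) without KO replicate 1 and -0.56 (adjusted p = 0.22) without KO replicate 2. Scaling by the median of ratios within gene bodies gave Gsto1 -0.55 (adjusted p = 0.098), so that its call rested on single libraries and on the deposited scale.

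In the opposite direction, Gstt2 (chr10:75831114-75837424, minus strand), a theta-class enzyme, had 89.5 and 92 normalized reads in the gene body in WT and 178 and 164 in KO. The theta-class gene thus rose 1.89-fold (log2 fold change 0.91, SE 0.20, limma adjusted p = 7.8e-04). Gstp1 (chr19:4035407-4037985, minus strand), the pi-class enzyme, is known as a marker of altered hepatocytes in rat liver. It had 73.4 and 75 in WT and 147 and 132 in KO, a 1.88-fold rise (log2 fold change 0.90, SE 0.21, limma adjusted p = 0.0015; without KO replicate 1, 0.82 and adjusted p = 0.054). Its counted gene body is 1502 bp long, and its near copy Gstp2 lies next to it. Reads that fit both could be dropped for low mapping quality or assigned to the wrong copy. The other 4 tested Gst genes were not called and lay between -0.27 and 0.41. Among them, Gsta3, an alpha-class enzyme known for aflatoxin detoxification and the gene with the most gene body reads of the set, had 10258 and 7961 normalized reads in WT and 10493 and 12529 in KO (log2 fold change 0.34, limma adjusted p = 0.034, under the fold threshold). This difference was 0.16 (adjusted p = 0.41) without WT replicate 2 and 0.22 (adjusted p = 0.39) without KO replicate 2, and its limma adjusted p was 0.059 with median-of-ratios scaling.

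Among the UDP-glucuronosyltransferases, a single gene was called. Ugt2a3 (chr5:87324972-87337195, minus strand), of the UGT2A subfamily, had 251 and 261 normalized reads in the gene body in WT and 94.4 and 53.1 in KO. The WT libraries nearly coincided, and the mean went from 256 ± 6.88 to 73.8 ± 29.2 (SD, n = 2 each; log2 fold change -1.84, SE 0.23, limma adjusted p = 7.6e-07). The other 7 tested Ugt genes lay between -0.49 and 0.38. Of these, Ugt2b36, the Ugt2 gene of highest mean density, had 2027 and 1694 in WT and 1389 and 1465 in KO (log2 fold change -0.38, limma adjusted p = 0.013, under the fold threshold).

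The Ugt1 locus makes several enzymes, among them the bilirubin-conjugating UGT1A1, from alternative first exons joined to shared last exons. The file represented it by 1 transcript, that of Ugt1a10 (chr1:88055388-88219004, plus strand), whose gene body of 163592 bp spans the other first exons. The value is thus a sum over the locus. It was 7312 and 5959 normalized reads in WT and 6176 and 7415 in KO, which overlapped (log2 fold change 0.04, SE 0.12, limma adjusted p = 0.84). Ugt3a2, of a family that uses sugar donors other than UDP-glucuronic acid, had 808 and 477 in WT and 422 and 460 in KO (log2 fold change -0.49, limma adjusted p = 0.029). WT replicate 1 again stood above the other libraries, and the change was -0.11 (limma adjusted p = 0.66) without it and -0.87 (adjusted p = 1.7e-06) without WT replicate 2.

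Among the sulfotransferases, 3 genes fell to between 0.284 and 0.489 of their WT mean. Sult2a6 (chr7:14222403-14254870, minus strand), of the hydroxysteroid and bile acid sulfotransferases, had 470 and 389 normalized reads in the gene body in WT and 159 and 85.0 in KO. This was the largest fall among the 26 tested genes, 3.52-fold between means (log2 fold change -1.87, SE 0.22, limma adjusted p = 2.8e-07). Its mean density was 13.7 normalized reads per kb in WT and 3.88 in KO. It thus passed the activity cutoff of 4 normalized reads per kb only through its WT values. Sult1d1 (chr5:87554645-87569027, minus strand), a sulfotransferase of catecholamines and other phenols, had 1391 and 892 in WT and 397 and 364 in KO. Although the WT libraries differed, both lay above both KO libraries, and the mean went from 1141 ± 353 to 381 ± 22.9 (SD, n = 2 each; log2 fold change -1.55, SE 0.16, limma adjusted p = 5.4e-08). Sult1c2 (chr17:53829637-53846339, minus strand) had 139 and 115 in WT and 78.5 and 45.5 in KO (log2 fold change -1.07, SE 0.25, limma adjusted p = 0.0017). Without KO replicate 2 its change was -0.68 (adjusted p = 0.10), so the call rested on the lower KO library.

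Sult2a2 (chr7:13733505-13779636, plus strand) had 3256 and 2669 normalized reads in WT and 1715 and 2147 in KO. Its change of -0.62 (SE 0.13, limma adjusted p = 3.3e-04) lay just past the fold threshold. It was -0.54 (adjusted p = 0.024) with median-of-ratios scaling, -0.48 (adjusted p = 0.0035) without WT replicate 1 and -0.46 (adjusted p = 0.055) without KO replicate 1. Sult5a1 (chr8:123140192-123158315, minus strand) was the gene with the largest rise among those tested, from 66.5 and 56 in WT to 144 and 159 in KO. The means were 61.3 ± 7.46 and 152 ± 10.7 (SD, n = 2 each; log2 fold change 1.30, SE 0.22, limma adjusted p = 4.3e-05). The other 4 tested Sult genes were not called and lay between -0.46 and -0.05. Sult1a1, the phenol sulfotransferase with the highest gene body density of the set, had 1275 and 1445 in WT and 969 and 1067 in KO (log2 fold change -0.42, limma adjusted p = 0.0079, under the fold threshold). Sult2a1, the Sult2 gene of highest mean density, had 5965 and 4441 in WT and 3508 and 4008 in KO (log2 fold change -0.46, limma adjusted p = 0.0055, -0.24 with adjusted p = 0.17 without WT replicate 1, and -0.67 with adjusted p = 8.9e-06 without WT replicate 2).

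The gene body calls depended on the activity filter. Where every single library had to pass the cutoff, 21 conjugation genes were tested, of which 2 rose and 6 fell. Sult2a6, Sult1c2 and Sult5a1 were not among those 21, since each lay under the cutoff in at least 1 library. With limma over all 20642 symbols, Gstz1 (adjusted p = 0.050) was the only gene of the 8 falls and 3 rises that stayed called, and it called Gsta2, Sult2a3 and Sult1c1 up, the last with 0 reads in both WT libraries and 2 and 1 in KO. With edgeR on the recovered reads of every gene with a gene body read, the same 8 fell and the same 3 were among 8 that rose.

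The second comparison asked how polymerase near the promoter differed. The promoter-proximal value is taken from the richest 50 bp window within 500 bp of the start site and follows paused polymerase. On the deposited scale the median log2 fold change of all active genes was 0.56 in this region, with 25.8% of genes up and 2.20% down. Of the 26 conjugation genes, 2 rose (Gstt2 and Sult5a1) and 2 fell (Ugt2a3 and Sult1d1). Their median was -0.04, and only Gstt2, Sult5a1 and Gstp1 lay above the median of all active genes. With scaling within the region, which brings the median of all genes to about 0, 1 conjugation gene rose and 5 fell (beside 4.99% and 7.41% of all active genes with median-of-ratios scaling), their median was -0.60, and 9 of the 26 turned from a positive to a negative change (Gstk1, Gsto1, Gstt1, Gstt3, Sult1a1, Sult2a2, Sult2a5, Ugt2b35 and Ugt3a2). Against the median of all active genes, 23 of 26 lay lower on the deposited scale.

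Gstt2 had 95.2 and 48 promoter-proximal normalized reads in WT and 174 and 290.0 in KO. Its change was 1.72 (SE 0.34, limma adjusted p = 2.3e-05), or 1.16 above the median of active genes. Without WT replicate 2 it was 1.23 (adjusted p = 0.13), and without KO replicate 2 it was 1.35 (adjusted p = 0.093). Ugt2a3 had 27.5 and 42 in WT and 13.8 and 10.6 in KO, which did not overlap. Its change of -1.42 (SE 0.43, limma adjusted p = 0.0079) lay 1.98 below the median of active genes, and was -1.12 (adjusted p = 0.24) without WT replicate 2 and -1.24 (adjusted p = 0.13) without KO replicate 2.

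Sult1d1 had 591 and 388 promoter-proximal normalized reads in WT and 286 and 244 in KO, the densest promoter window of the set in WT. The change was -0.85 (SE 0.30, limma adjusted p = 0.025) and -0.77 (adjusted p = 0.081) with the scaling of gene bodies. Without WT replicate 1 it was -0.55 (adjusted p = 0.43), without WT replicate 2 it was -1.16 (adjusted p = 0.12) and without KO replicate 2 it was -0.74 (adjusted p = 0.17). With replicate number as a block, the adjusted p was 0.080. Sult5a1 had 1.15 and 1 in WT and 3.18 and 7.59 in KO, which are 1 to 5 reads per library. Its call (log2 fold change 1.53, limma adjusted p = 0.030) was absent under the edgeR test (adjusted p = 0.079), under the replicate block (adjusted p = 0.059), without WT replicate 2 (adjusted p = 0.061) and without KO replicate 2 (adjusted p = 0.16).

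The 2 regions moved together in some genes and apart in others. Both fell in Ugt2a3 and Sult1d1, and both rose in Gstt2. Both were also called up in Sult5a1, where the promoter-proximal call rested on 1 to 5 reads per library and was lost with edgeR. The other 6 genes whose gene bodies fell had promoter-proximal changes between -0.44 and 0.42, none of them called. Gstk1 had opposite signs on the deposited scale, where its promoter-proximal window had 342 and 272 normalized reads in WT and 357 and 465 in KO (log2 fold change 0.42, limma adjusted p = 0.27) while its gene body signal fell. With median-of-ratios scaling within the region the promoter-proximal change was -0.15. Gstz1 had 35.6 and 35 promoter-proximal normalized reads in WT and 27.6 and 42.5 in KO, which overlapped. The difference between the regions was not tested.

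**Figure D2:**
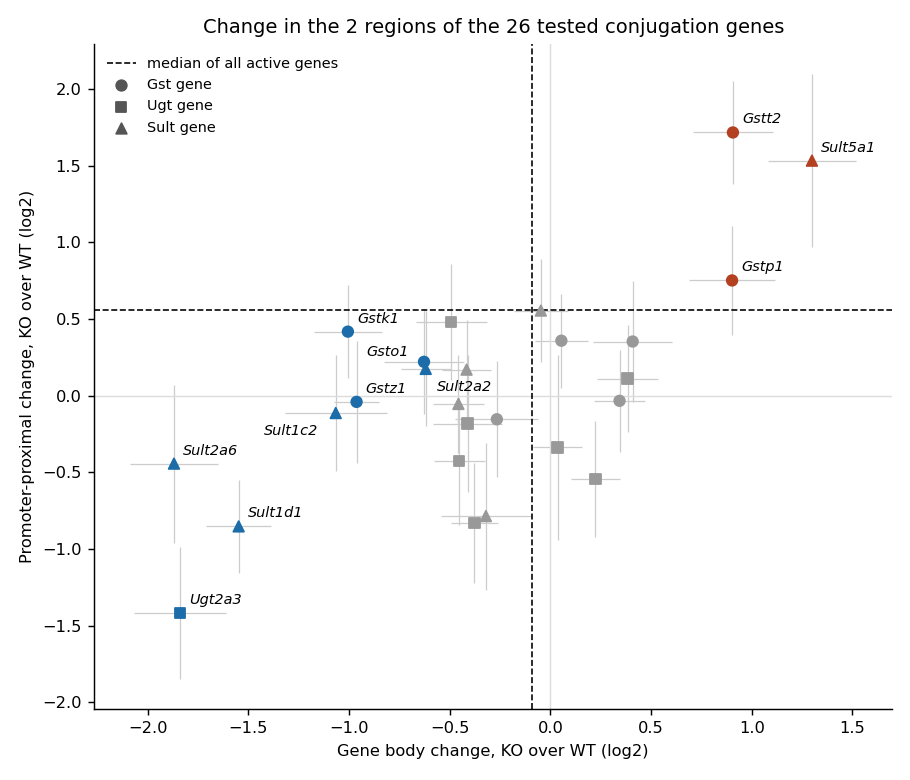
Log2 fold change of KO over WT in gene bodies (horizontal axis) and promoter-proximal windows (vertical axis) for the 26 tested genes, with bars for the SE of the limma fit; blue points fell and red points rose in gene bodies, grey points were not called there, and dashed lines are the medians of all active genes (-0.09 and 0.56). Ugt2a3 and Sult1d1 lie at the lower left and Gstt2 and Sult5a1 at the upper right, and 23 of the 26 points lie below the dashed horizontal line.

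The 18 genes under the activity cutoff (4 normalized reads per kb over the 4 libraries, with at least some promoter-proximal reads) were Gsta1, Gsta2, Gsto2, Gstp2, Gstt4, 4 Ugt genes and 9 Sult genes. Of all 44 genes, 8 had no promoter-proximal read in any library, and Ugt2a1 and Ugt2b38 had no read in either region. The single members of the Sult3, Sult4 and Sult6 families, Sult3a1, Sult4a1 and Sult6b1, had at most 1.15, 4.55 and 13.8 normalized gene body reads in a library. The low genes were examined with edgeR's quasi-likelihood test on the recovered reads of every gene with a read in the region, an alternative chosen after the values were seen, as were the genes named in this paragraph and the next. In gene bodies it called 8 of 42 conjugation genes up and 8 down, against 11.0% and 9.88% of all 18354 genes so tested. Of the 8 that rose, 5 were under the activity cutoff (Gsta2, Sult2a3, Sult2a4, Sult2b1 and Ugt3a1), and none of the 8 that fell was. In promoter-proximal windows it called 3 of 36 up (Gsta2, Gstt2 and Ugt3a1) and 2 down (Sult1d1 and Ugt2a3), against 19.7% and 1.68% of 16645 genes.

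Gsta2, an alpha-class glutathione S-transferase known to respond to NRF2 and to PXR, had 18.4 and 15 normalized gene body reads in WT and 87.0 and 85.0 in KO, or 5.16-fold (edgeR log2 fold change 2.37, adjusted p = 3.4e-12). Its promoter-proximal window held 4.59 and 6 in WT and 73.2 and 62.3 in KO (edgeR log2 fold change 3.64, adjusted p = 8.7e-12). Both regions of Gsta2 were thus near silent in WT and several-fold higher in both KO libraries. With limma over all symbols, the gene body change had an adjusted p of 0.048 and the promoter-proximal change an adjusted p of 0.11. Gsta1, its close relative, had 0 to 1 gene body reads in WT and 3 to 5 in KO. Reads that fit several near-identical alpha-class copies could be dropped for low mapping quality or assigned to the wrong copy.

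Sult2a3 had 50.5 and 60 normalized gene body reads in WT and 247 and 205 in KO (edgeR log2 fold change 2.03, adjusted p = 3.2e-20), while its promoter-proximal window held 1 to 3 reads in every library. Sult2a4 had 14.9 and 14 in WT and 45.6 and 36.4 in KO (edgeR log2 fold change 1.51, adjusted p = 6.9e-04), and Sult2b1, the cholesterol sulfotransferase, had 50.5 and 38 in WT and 84.9 and 79.0 in KO (edgeR log2 fold change 0.90, adjusted p = 0.0034). All 3 lay higher in both KO libraries, which is no separate support, since they were named after their values were seen. Ugt3a1 lay just under the activity cutoff, and Sult1b1, at 4.2 normalized reads per kb, just above it. Ugt3a1 had 115 and 86 in WT and 176 and 170.0 in KO in the gene body (edgeR log2 fold change 0.79, adjusted p = 4.3e-04) and 22.9 and 9 against 32.9 and 56.2 near the promoter (edgeR log2 fold change 1.47, adjusted p = 0.0034). Sult1e1, the estrogen sulfotransferase, had 9.18 and 10 in WT and 1.06 and 3.04 in KO (edgeR log2 fold change -2.27, adjusted p = 0.055).

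**Figure D3:**
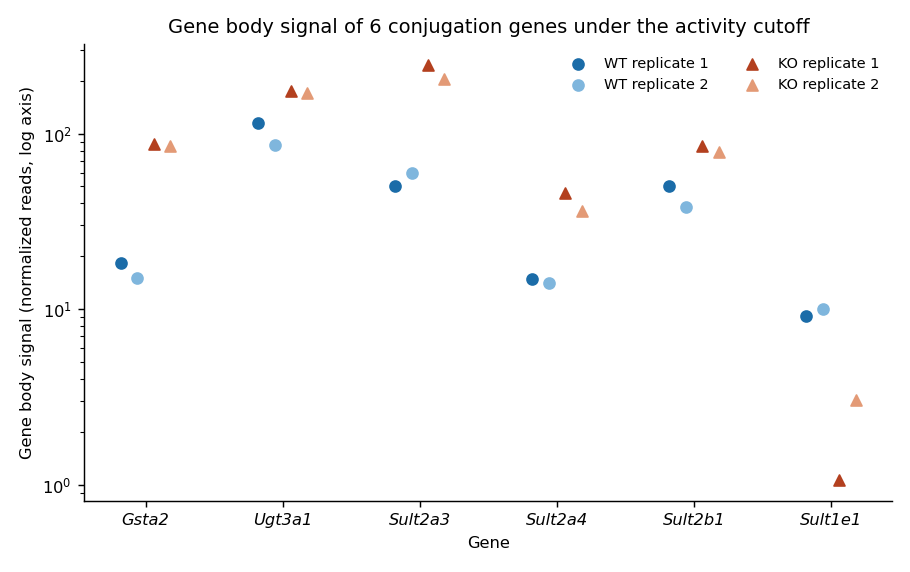
Gene body signal in each library, in normalized reads on a log axis, of 6 genes under the activity cutoff, with circles for WT and triangles for KO. The KO points of Gsta2, Ugt3a1, Sult2a3, Sult2a4 and Sult2b1 lie above both WT points, and those of Sult1e1, at 1.06 and 3.04, lie below 9.18 and 10.

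Most of these genes lie in clusters of near copies, and neighbours differed. On chromosome 5 (chr5:86889767-87591594), 12 Ugt2 and Sult1 genes lie next to each other, 8 of them tested. The calls there were the falls of Ugt2a3 and Sult1d1, and their 6 tested neighbours lay between -0.45 and 0.38. Ugt2b35 and Ugt2b36, neighbours on opposite strands, had log2 fold changes of 0.38 and -0.38. On chromosome 7 (chr7:13623967-14494230), the 7 Sult2a genes held the largest fall of the tested genes, Sult2a6, beside the rises of Sult2a3 and Sult2a4 by edgeR. Sult2a5, at the other end of the cluster, had 2755 and 1918 normalized reads in WT and 2123 and 2331 in KO, which overlapped. Of the pair on chromosome 15, the gene body values of KO lay above those of WT for Ugt3a1 and below them for Ugt3a2, with no overlap. These contrasts between neighbours were not tested. Where sequences within a cluster are nearly identical, reads can be dropped for low mapping quality or assigned to the wrong copy.

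**Figure D4:**
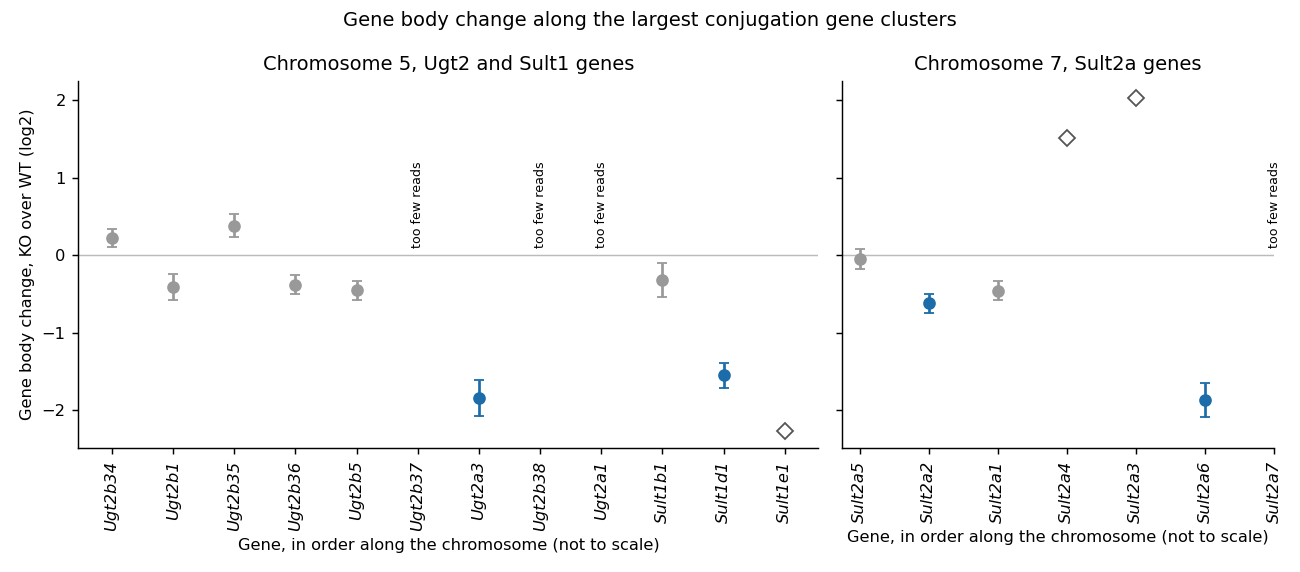
Gene body log2 fold change of KO over WT for the 12 genes of the chromosome 5 cluster and the 7 genes of the chromosome 7 cluster, in chromosome order and not to scale. Filled points are limma changes with SE bars (blue fell, grey not called), open diamonds are edgeR changes of genes under the activity cutoff that averaged 5 or more normalized reads, and the remaining genes had too few reads. Ugt2a3, Sult1d1 and Sult2a6 lie well below their tested neighbours, and Sult2a3 and Sult2a4 lie above 0.

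Levels between genes were compared per kb of gene body. In WT, Sult1a1 was highest at 547 normalized reads per kb, followed by Gsta3 (380), Gstz1 (245), Sult2a1 (130) and Gstk1 (97.8), and the lowest tested gene was Sult5a1 at 4.25. The median was 45.7 over the tested conjugation genes and 37.7 over all active genes. In KO, Gsta3 was highest at 480 and Sult1a1 second at 409, while Sult1d1 went from the sixth to the 17th place, and Gstp1 and Gstt2 went from the 12th and 14th to the fifth and sixth. The densities of Sult1a1 and Gsta3 in single libraries did not overlap in WT, and in KO that of Gsta3 was higher in both libraries. Summed over the 44 genes, gene body signal was 44926 and 36580 normalized reads in WT and 34381 and 39253 in KO, which overlapped. Gsta3 made up 22.8% and 21.8% of the sum in WT and 30.5% and 31.9% in KO.

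The enzymes need activated cofactors, and a list of 41 genes in the file covered their supply, other conjugations and linked detoxification. The list held 34 active genes, of which 5 rose and 8 fell in gene bodies (against 10.4% and 11.4% of all active genes), with a median of -0.30. Ugdh, which makes UDP-glucuronic acid, had 309 and 287 normalized reads in WT and 573 and 639 in KO, a 2.03-fold rise (log2 fold change 1.02, limma adjusted p = 4.0e-06), while the other 4 genes of glucuronidation supply and reversal lay between -0.48 and 0.10 without a call. Of the 6 genes of sulfonation supply and reversal, 0 were called in gene bodies by limma, edgeR or DESeq2 (-0.59 to 0.39). Of these, 3 had a limma adjusted p under 0.05 and were uncalled only for the fold threshold. They were Bpnt1 (-0.59, adjusted p = 8.0e-04), Papss1 (0.39, adjusted p = 0.013) and Papss2 (-0.31, adjusted p = 0.048). Papss1 and Papss2, the synthases of PAPS, and Impad1 rose near the promoter (0.98, 0.83 and 1.03, against the median of 0.56 for active genes). The edgeR adjusted p of Papss2 there was 0.053 over every gene with a read.

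Of the 9 tested genes of glutathione supply and membrane-bound transferases, Cbs (-1.22) and Ggct (-1.12) fell and Mgst3 (0.61) rose in gene bodies. Cbs, which starts the transsulfuration route from homocysteine to cysteine, had 4163 and 5268 normalized reads in WT and 1933 and 2080 in KO (limma adjusted p = 1.9e-08). Cth, the next enzyme of that route, was not called in the gene body (-0.30, limma adjusted p = 0.12) and fell near the promoter, from 185 and 166 to 73.2 and 103 normalized reads (-1.0, limma adjusted p = 0.018). This promoter-proximal call was lost with replicate number as a block. Gclc, the catalytic subunit of the rate-limiting enzyme of glutathione synthesis, had 5600 and 4471 in WT and 5343 and 6866 in KO in the gene body, which overlapped.

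Other conjugation routes held the most falls, in 5 of 10 tested genes. They were Acsm3 (-1.68), an acyl-CoA synthetase of the family that activates acids for glycine conjugation, the methyltransferases Tpmt (-1.29), which acts on thiopurines, and As3mt (-0.66), which acts on arsenic, the acetyltransferase Nat2 (-0.71) and the glycine acyltransferase Glyat (-0.70). Baat, which joins bile acids to taurine or glycine, rose instead, from 637 and 453 normalized reads in WT to 1019 and 1139 in KO (log2 fold change 1.0, limma adjusted p = 6.4e-06), and it rose near the promoter as well (1.40). The methyltransferase Inmt rose in the gene body (0.74, limma adjusted p = 0.0077), with 704 and 324 in WT and 744 and 856 in KO, where WT replicate 1 lay near the KO libraries. The epoxide hydrolases moved in opposite directions. Ephx1, the microsomal enzyme of xenobiotic epoxides, had 1310 and 1169 in WT and 2176 and 2458 in KO (log2 fold change 0.90, limma adjusted p = 1.3e-06), and Ephx2, the soluble enzyme of lipid epoxides, had 5288 and 4092 in WT and 1739 and 1714 in KO (log2 fold change -1.43, limma adjusted p = 2.0e-09). Both also passed the limma test near the promoter in the same directions (1.25 and -0.89). With replicate number as a block, 0 genes of the whole list were called down there. Near the promoter the whole list had 6 rises and 2 falls among its 34 tested genes, against 25.8% and 2.20% of active genes, with a median of 0.31. With median-of-ratios scaling within the region, 1 rose and 8 fell.

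**Figure D5:**
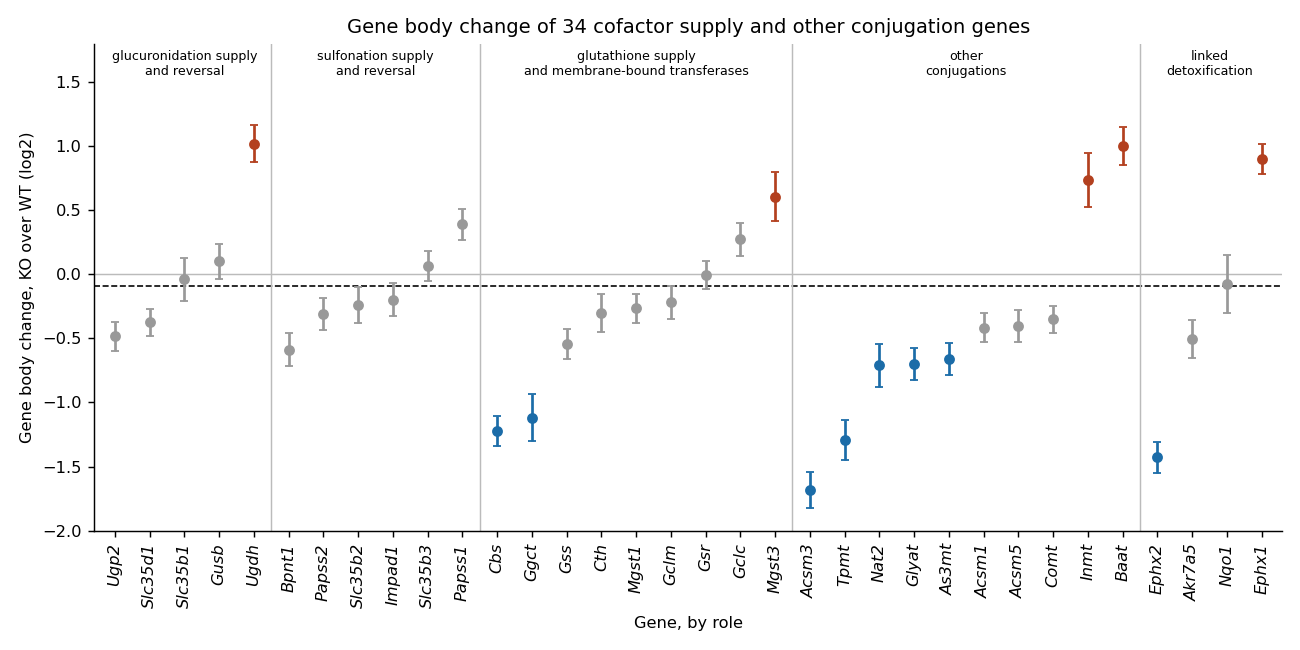
Gene body log2 fold change of KO over WT, with SE bars of the limma fit, for the 34 tested genes of cofactor supply and other conjugations, grouped by role; blue points fell, red points rose, grey points were not called, and the dashed line is the median of active genes (-0.09). Acsm3 (-1.68) and Ephx2 (-1.43) are lowest and Ugdh (1.02) and Baat (1.0) highest.

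Among 21 regulators known to act on these enzymes, all active, 8 fell and 0 rose in gene bodies by limma, beside 11.4% and 10.4% of all active genes. Without the activity filter, Hnf4a (adjusted p = 0.039), Esr1 (0.032) and Foxa1 (0.047) were the only 3 of the 8 that limma still called. At an unadjusted p under 0.05, 1 was higher (Nfe2l2), and edgeR and DESeq2 also called 0 up. The falls were Hnf4a (-1.53), Esr1 (-1.37), Cebpb (-1.30), Foxa2 (-1.18), Nr1i2 (-1.10), Ppara (-1.07), Foxa1 (-0.86) and Cebpa (-0.79). Nr1i2, which encodes the drug sensor PXR, had 6807 and 7833 normalized reads in WT and 3168 and 3665 in KO (limma adjusted p = 5.1e-08). The related sensor gene Nr1i3, which encodes CAR, had 948 and 858 in WT and 764 and 940 in KO, which overlapped (-0.09, limma adjusted p = 0.62). Hnf4a, a master factor of hepatocytes that is also in the marker list, had 17104 and 17557 in WT and 5615 and 6374 in KO (limma adjusted p = 2.6e-10). Hnf4a, Foxa1 and Foxa2 also fell near the promoter (-1.20, -1.02 and -1.12). Nfe2l2, which encodes NRF2, had 4277 and 4302 in WT and 5496 and 5572 in KO in the gene body (0.37, limma adjusted p = 0.0072, under the fold threshold), and Nfe2l2, its inhibitor gene Keap1 and Nr1h4, which encodes the bile acid receptor FXR, rose near the promoter (0.79, 1.13 and 1.22). These were 3 of 21 regulators, beside 25.8% of all active genes with a median of 0.56 in that region. Nfe2l2 lay 0.23 above that median, and its edgeR adjusted p there was 0.061 over every gene with a read.

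The deposited list of 2282 intergenic enhancers, called by the authors on the reads of all 4 libraries pooled, was searched for enhancers near these genes. By default the method of the authors leaves out transcripts close to any RefSeq gene, which limits what could be called within dense gene clusters. A conjugation gene was listed as the closest gene of 2 enhancers. That of Ugt2a3 (chr5:87356786-87376694) lay 19591 bp from the gene and joined 2 enhancer centers. It was also the only enhancer other than that of Gstp1 with a conjugation gene listed within 50 kb. The authors state that inactive genes are ignored when enhancers are assigned. Conjugation genes that were not active could thus be absent from the closest-gene and 50 kb links. The enhancer near Gstp1 (chr19:4066961-4070049) had another closest gene. That of Gstk1 lay 690206 bp away. Through interactions recorded in 4DGenome, the authors linked 24 enhancers to at least 1 conjugation gene. Many of these links joined different chromosomes, such as an enhancer on chromosome 1 and Gstp1 on chromosome 19. The authors describe 4DGenome as including many interactions of tissues or conditions other than liver. The list holds no values of single libraries, so enhancer activity was not compared between genotypes.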

How the data were processed

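Promoter-proximal and gene body reads of PRO-seq libraries from 2 WT and 2 Hdac3 KO pools were analysed. The authors trimmed reads with cutadapt and mapped them to mm10 with Bowtie2, dropped reads on ribosomal RNA or of mapping quality under 10, and quantified 20820 RefSeq transcripts with NRSA (gene bodies from 1 kb past the start). Values deposited for WT replicate 2 are counts, because its factor is 1. In the other libraries the deposited values are a normalized signal, which is the read count of the authors times 1.15 for WT replicate 1, 1.06 for KO replicate 1 and 1.52 for KO replicate 2. Densities hold this signal for each bp. Division by the factor gave whole reads for 100% of 41640 values of each library (tolerance 0.001).

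Genes were members by symbol, and a symbol with several transcripts was represented by that with the largest mean promoter-proximal value. Active genes were those with any promoter-proximal signal and more than 4 normalized reads per kb of gene body on average, a cutoff applied on the deposited scale, whereas the study set it after scaling totals to a common depth. Log2(value + 1) was fitted over 12705 active genes with limma 3.58.1 (trend, no block; R 4.3.3), with Benjamini-Hochberg adjustment, and fold changes are on that scale, which understates low genes. A call needed both an adjusted p below 0.05 and a log2 fold change beyond 0.6 in either direction. The procedure was also run on simulated data with as many rises as falls and no shift of all genes. That setting differs from the promoter-proximal values, so the simulation does not test the calls in that region. Alternatives were the edgeR 4.0.16 quasi-likelihood test and DESeq2 1.42.0, both on recovered reads, other pseudocounts, filters, scalings and transcripts, blocking on replicate number, and omission of each library.

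Named genes were every called member, the member of highest mean density in each family, and called genes of the cofactor and regulator lists. Gsta1, Gsta2, Sult1e1, Sult2a3, Sult2a4, Sult2b1 and Ugt3a1, the uncalled Gclc and Nr1i3, and members named for a count or a place in a cluster, were chosen after their values were seen. A regulator of the list is not reported here. Members and lists were chosen with earlier results of these data known, so none is independent evidence. Same-numbered libraries did not deviate together (correlation 0.019 in gene bodies and -0.11 near promoters). Gene positions are from GENCODE M21 (GRCm38, the assembly of mm10). Plots were drawn with matplotlib 3.10.9 in Python 3.11.15.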

Additional observations from a re-analysis of the deposited data

How the results depend on the processing

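Gene body counts of the conjugation genes (3 up, 8 down) stayed within 1.5 times of these values under edgeR and DESeq2 over active genes, other pseudocounts, scalings and transcripts, with these exceptions. Without a threshold on the fold change, 5 rose and 13 fell. Without the activity filter, 1 fell, and the 3 that rose were other genes (Gsta2, Sult2a3 and Sult1c1). With edgeR over every gene with a read, chosen after seeing the data, 8 rose. Leaving out single libraries gave 2 to 3 rises and 6 to 10 falls, with 6 falls without WT replicate 1 or either KO replicate and 10 without WT replicate 2. Promoter-proximal counts (2 up, 2 down) were less stable. Rises were 1 with edgeR, DESeq2, a pseudocount of 10, activity in every library, median-of-ratios or TMM scaling within the region, or the replicate block, 0 without the activity filter, and 0 to 2 with single libraries left out (0 without WT replicate 2 or KO replicate 2). Falls were 1 with DESeq2, the scaling of gene bodies or the replicate block, 5 with median-of-ratios or TMM scaling within the region, 0 without the activity filter, and 0 to 2 with single libraries left out (0 without WT replicate 2 or KO replicate 2). The cause of these shifts was not tested, except that scaling within the region lowers every promoter-proximal change together. For cofactor supply and other conjugations, gene bodies (5 up, 8 down) gave 1 rise and 0 falls without the activity filter, 17 falls without a fold threshold, and 3 to 5 rises and 6 to 9 falls with single libraries left out. Promoter-proximal windows (6 up, 2 down) gave 0 rises and 0 falls without the activity filter, 1 rise and 8 falls with median-of-ratios or TMM scaling, 1 fall with DESeq2, 0 falls with the scaling of gene bodies, 0 falls with the replicate block, and 0 to 8 rises and 0 falls with single libraries left out. Replicate numbers did not pair the libraries, and the replicate block changed no gene body call of a named conjugation gene. Crossing the replicate numbers, an alternative added once the data had been seen, gave 10 rises and 5 falls near promoters for this list and 3 and 3 for the conjugation genes. No called value of a named conjugation gene, whose values were followed one by one, changed sign under an alternative. With 2 pools per genotype and 16628518 reads in the shallowest library, promoter windows with few reads limit what can be seen.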
